A study of Danio rerio with 16 samples.

Results

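The genes isg15, irf1a, irf1b and nfkb2, which belong to the interferon and NF-kB responses, were followed in zebrafish embryos mutant for rad21a. They were chosen by name with earlier results of these data in view, namely the comparison of mutant with wild type embryos at 48 hours post fertilisation (hpf) and the spread between mutant pools. Their values at 48 hpf are therefore given as a description, without a test. They are 4 of the 8793 genes with a symbol on the array, and each had 1 probe set, which makes 4 of the 15617 in the table. RNA came from dechorionated whole embryos homozygous for the nz171 allele of the cohesin subunit gene rad21a and from wild type embryos, both at 24 hpf and at 48 hpf. Each group had 4 pools, each made of 50 embryos, labelled as a biological replicate and measured on a separate Affymetrix array (16 arrays in all). All embryos were kept in embryo medium at the same temperature, and the labels name no further allele, strain or agent. A pool of whole embryos cannot show which embryo or cell type a signal came from.

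Interferons are secreted proteins that act through receptors, Janus kinases and STAT transcription factors to switch on antiviral genes. Isg15 is a ubiquitin-like protein, made after interferon exposure, that is joined to other proteins by dedicated enzymes. Irf1a and Irf1b are the zebrafish counterparts of mammalian IRF1, a transcription factor that is induced by interferon gamma and by NF-kB and that activates interferon-stimulated genes. Nfkb2 encodes the p100 precursor of the p52 subunit, which acts with RelB in the non-canonical branch of NF-kB signalling and is itself an NF-kB target.

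Array medians were 45.5 to 48.08 in linear intensity. The rad21a probe set checked the labels: it read 6.58, 6.72, 7.06 and 6.83 in mutants against 10.09, 10.48, 10.55 and 10.40 in wild type embryos at 24 hpf, and 6.57, 6.72, 6.05 and 5.92 in mutants against 10.48, 10.26, 10.06 and 10.15 in wild type embryos at 48 hpf (log2 intensity). The muscle marker actc1b and the epidermal marker krt4 were bright on all arrays, as whole embryos would give. The muscle marker pvalb1 was not, and averaged 5.446 (log2 intensity) in mutants at 24 hpf. Probe sets for 5 foreign sequences that an embryo does not carry read between 2.771 and 7.22, with a median of 4.655 on the same log2 scale. A signal near or under that median lies within the range of background, and a fold change against it is compressed. The arrays least like the rest of their groups were mutant pool 4 at 48 hpf, wild type pool 1 at 24 hpf and wild type pool 3 at 48 hpf, with mean correlations of 0.98342, 0.98474 and 0.9855 with the other arrays of their group.

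At 48 hpf isg15 was high in some mutant pools and at background in the others. It read 3.85, 4.01, 6.56 and 7.24 (log2 intensity) in mutant pools 1 to 4, against 3.65, 3.63, 3.81 and 3.70 in the wild type pools. All 4 mutant pools lay above all 4 wild type pools, but pools 1 and 2 only narrowly. In linear intensity the mutant pools read 14.4, 16.1, 94.2 and 150.9, against 12.4 to 14.0 in wild type embryos. Pools 3 and 4 were 7.26-fold and 11.64-fold above the wild type mean, and pools 1 and 2 were 1.11-fold and 1.24-fold above it. Pools 3 and 4 were the only 2 of the 16 arrays on which isg15 passed the median of the foreign sequences. Pool 3 (6.56) still lay within the range of the brightest foreign probe set (6.057 to 7.22). The mutant group averaged 5.41 ± 1.74 and the wild type group 3.70 ± 0.08 (SD, n = 4 each), a log2 difference of 1.72 ± 0.53 (SE of the fit). The spread between mutant pools was wider for isg15 than for 99.98% of all probe sets at 48 hpf. Without mutant pool 4 the log2 difference was 1.11, and without mutant pool 1 it was 2.24, so single pools moved the linear fold by more than 1.5 times between these values.

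The transcription factor gene irf1b was also higher in mutants at 48 hpf, with its top value in the same pool. It read 3.86, 4.38, 4.49 and 5.55 in mutant pools 1 to 4, against 3.63, 3.58, 3.35 and 3.64 in wild type pools. Every mutant pool exceeded every wild type pool. Mutant pool 4 stood 4.01-fold above the wild type mean, pool 3 1.92-fold, pool 2 1.78-fold and pool 1 1.24-fold. Only mutant pool 4 lay above the median of the foreign sequences. The group means were 4.57 ± 0.71 in mutants and 3.55 ± 0.13 in wild type embryos (SD, n = 4 each), a log2 difference of 1.02 ± 0.23, or 2.03-fold. Leaving out mutant pool 4 gave a log2 difference of 0.69, and leaving out pool 1 gave 1.26.

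Its paralog irf1a differed far less and stayed at background. It read 3.64, 3.80, 3.95 and 3.78 in mutant pools at 48 hpf, against 3.54, 3.46, 3.36 and 3.59 in wild type pools. The groups did not overlap, although the gap between the lowest mutant and the highest wild type pool was small. The log2 difference was 0.31 ± 0.09 (1.24-fold), and irf1a lay under the median of the foreign sequences on all 16 arrays. Here the highest mutant pool was pool 3, and pool 4 did not stand apart.

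The NF-kB subunit gene nfkb2 was above the median of the foreign sequences on all 16 arrays, but within their range. The brightest foreign probe set read 6.057 to 7.22, and the highest reading of the others was 5.895. In mutant pools at 48 hpf nfkb2 read 5.58, 5.55, 5.92 and 5.97, against 5.59, 5.15, 5.06 and 5.37 in wild type pools. Pools 3 and 4 were again the higher mutant pools, and pools 1 and 2 lay just under the top wild type pool, so the groups overlapped. The means were 5.76 ± 0.22 in mutants and 5.29 ± 0.24 in wild type embryos (SD, n = 4 each), a log2 difference of 0.46 ± 0.13 (1.38-fold). Thus 3 of the 4 genes had all mutant pools above all wild type pools at 48 hpf, while 10.6% of all probe sets did so. Because this contrast was in view when the genes were chosen, nothing is read from that count.

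**Figure D1:**
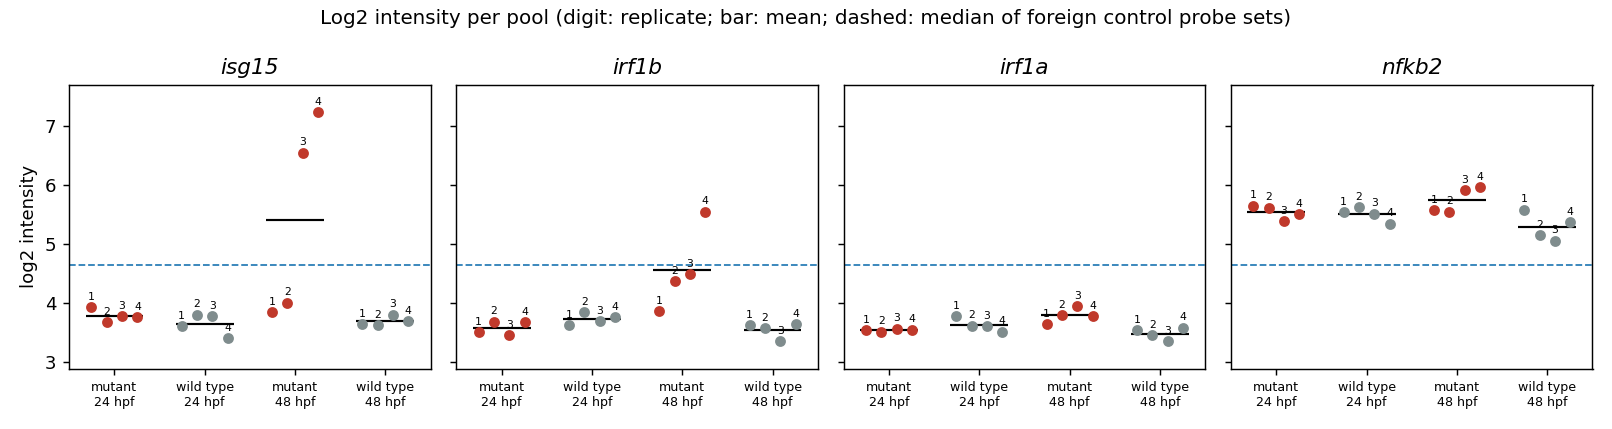
Log2 intensity (vertical axis) of isg15, irf1b, irf1a and nfkb2 in each pool, by genotype and time, with mutants left of wild type embryos. Points are single pools of 50 embryos, bars show the group mean and the dashed line marks the median of the foreign sequences at 4.655. Mutant pools 3 and 4 at 48 hpf carry isg15 at 6.56 and 7.24, while its other 14 arrays lie between 3.40 and 4.01.

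At 24 hpf none of the 4 genes passed the test of mutant against wild type embryos, where 7.35% of all probe sets did (limma, adjusted p under 0.05), and 0 had an unadjusted p under 0.05. For isg15 the pools read 3.94, 3.68, 3.78 and 3.76 in mutants, against 3.61, 3.80, 3.78 and 3.40 in wild type embryos. The log2 difference was 0.14 ± 0.53 (limma adjusted p = 0.938), and the SE is wide because the fit shares the spread of the mutant pools at 48 hpf. For irf1b the pools read 3.51, 3.69, 3.46 and 3.68 in mutants and 3.63, 3.85, 3.69 and 3.77 in wild type embryos, a log2 difference of -0.15 ± 0.23 (limma adjusted p = 0.806). Its SE is wide for the same reason. For irf1a they read 3.54, 3.52, 3.57 and 3.55 in mutants and 3.78, 3.62, 3.61 and 3.52 in wild type embryos, a log2 difference of -0.09 ± 0.09 (limma adjusted p = 0.67). The pools of nfkb2 read 5.66, 5.62, 5.39 and 5.52 in mutants and 5.55, 5.63, 5.52 and 5.35 in wild type embryos, a log2 difference of 0.04 ± 0.13 (limma adjusted p = 0.934). Mutant and wild type pools overlapped for all 4 genes, while they were fully apart in either direction for 14.6% of all probe sets. For isg15, irf1a and irf1b both groups lay at background, where a difference in a weakly expressed gene is compressed and can be missed.

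None of the 4 genes passed the test of normal development either, and none had an unadjusted p under 0.05. In wild type embryos at 48 against 24 hpf, isg15 differed by 0.05 ± 0.53 and irf1b by -0.19 ± 0.23 on the log2 scale (limma adjusted p = 0.96 and 0.594). The difference was -0.15 ± 0.09 for irf1a and -0.22 ± 0.13 for nfkb2 (limma adjusted p = 0.227 and 0.216). For isg15 and irf1b the SE is wide because the fit shares the spread of the mutant pools at 48 hpf. That spread was in view when the genes were chosen, so not passing says little about isg15 and irf1b. Over all probe sets, 30.3% passed the test of normal development. The wild type arrays at 48 hpf used here also serve the comparison that chose the genes. In mutants the later mean exceeded the earlier by 1.62 for isg15, 0.99 for irf1b, 0.25 for irf1a and 0.21 for nfkb2 (log2, as description). By group mean isg15 ran from mutants at 48 hpf (5.41) through mutants at 24 hpf (3.79) and wild type embryos at 48 hpf (3.70) to wild type embryos at 24 hpf (3.65). Each group overlapped its neighbour, the first pair because mutant pool 1 at 48 hpf (3.85) lay within the range of mutants at 24 hpf. The order for irf1b was mutants at 48 hpf (4.57), wild type embryos at 24 hpf (3.74), mutants at 24 hpf (3.58) and wild type embryos at 48 hpf (3.55), with the last 3 overlapping and the first above them all. For nfkb2 mutants at 48 hpf (5.76) came first and wild type embryos at 48 hpf (5.29) last, and each group overlapped its neighbour. The order for irf1a was mutants at 48 hpf (3.79), wild type embryos at 24 hpf (3.63), mutants at 24 hpf (3.54) and wild type embryos at 48 hpf (3.49), and each group overlapped its neighbour.

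Across the 16 arrays, isg15 and irf1b varied most closely together (Pearson correlation 0.881), followed by irf1a with nfkb2 (0.762). The remaining pairs had correlations between 0.653 and 0.725. These are descriptions over arrays that share 4 groups. The values with isg15 rest largely on mutant pools 3 and 4 at 48 hpf (6.56 and 7.24), since isg15 read 3.40 to 4.01 on all other arrays. The spread between mutant pools was also in view when the genes were chosen, so shared variation can follow from the choice.

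Other measures also differed between the mutant and wild type pools at 48 hpf. For muscle actin acta1, the 3' minus the 5' control signal, a sign of RNA integrity and labelling, was 4.077, 3.389, 3.403 and 3.389 in mutant pools against 2.56, 2.68, 2.814 and 2.409 in wild type pools. The same difference for GAPDH was 0.579 to 0.655 in mutants and 0.546 to 0.63 in wild type embryos. Of 35 macrophage and neutrophil markers, 20 were measured: 3 rose at 48 hpf (lcp1, cyba and arpc1b), 4 fell (lyz, mpx, mmp13a and spi1b) and 13 did not pass. Their summed linear intensity ran from 9618 to 11550 in mutant pools and from 8814 to 10930 in wild type pools at 48 hpf. The bright apoc1 and ctss2.1 made up most of that sum, and without them it was 1588, 1532, 1520 and 2291 in mutant pools 1 to 4 against 2135 to 2795 in wild type pools. Without mmp9, which is also listed below as an NF-kB target and read 397.3 in mutant pool 4 against 33.4 to 96.2 in the other mutant pools, the sum was 1553, 1498, 1423 and 1894 in mutants against 2066 to 2729 in wild type embryos. These sums hold lyz, which averaged 7.28 in mutants and 10.08 in wild type embryos at 48 hpf (log2 intensity). No sum without lyz was taken, so they are not read as a fall across the list. The log2 difference at 48 hpf was -2.80 for lyz (limma adjusted p = 4.58e-07), -0.91 for mpx (0.000342) and 0.705 for arpc1b (0.00329). Probe sets disagreed for mpx, whose others differed by -1.83, 0.213 and -0.092 (limma adjusted p = 1.86e-05, 0.122 and 0.585). The other probe set of spi1b differed by -0.049 (limma adjusted p = 0.885), and that of cyba rose by 0.449 (0.00396). The markers csf1ra, marco, ptprc, ncf1 and wasb were at or under the median of the foreign sequences on all arrays. Of 16 lymphocyte markers 5 were measured and none passed at 48 hpf in limma (2 were lower at an unadjusted p under 0.05), with sums of 178.6 to 212.6 in mutants and 210 to 262.4 in wild type embryos. Of 10 measured erythroid markers 6 fell at 48 hpf and none rose, with a median log2 difference of -0.85 and sums of 13780 to 21300 in mutants against 23810 to 27150 in wild type embryos. Of 12 measured markers of other embryonic tissues 3 fell (fabp7a, cryaa and krt5) and none rose. The part of RNA integrity and of cell content in the isg15 and irf1b values, and in the pathway genes below, was not tested. In whole embryos fewer cells of a type and less RNA per cell cannot be told apart.

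The wider pathway was read from 10 lists of genes by role, of which 96 genes other than the 4 above were measured out of 286 listed. At 48 hpf 19 of the 96 rose in mutants, 6 fell and 71 did not pass. That is 26.0% called, beside 15.6% of all probe sets and 17.8% of all genes with a symbol, and 19.8% higher, beside 8.76% and 9.66%. Lower calls made up 6.81% of all probe sets and 8.18% of all genes. The lists were drawn up with earlier results of these data known, so these shares and those of single lists are a description. The split depended on the scaling: over all probe sets 1358 were higher and 1055 lower, against 1077 and 1282 after cyclic loess between arrays and 1134 and 1170 after centring each array on its median. The pathway split of 19 and 6 became 13 and 7 after cyclic loess and 14 and 7 after centring. The median log2 difference of the 96 was 0.078, and that of all probe sets was 0.033. Of the 96 genes, 22 were at or under the median of the foreign sequences on all arrays. Of the 25 calls, 14 held under each of 23 alternative fits that gave a value: those of gbp1, casp8, jak1, uba7, irf9, isg20, tbk1, tnfrsf1a, irak4, trim25, mmp13a, cxcl12a, ptgs2a and nfkbiab. Without mutant pool 4, 16 of the 96 genes were called.

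**Figure D2:**
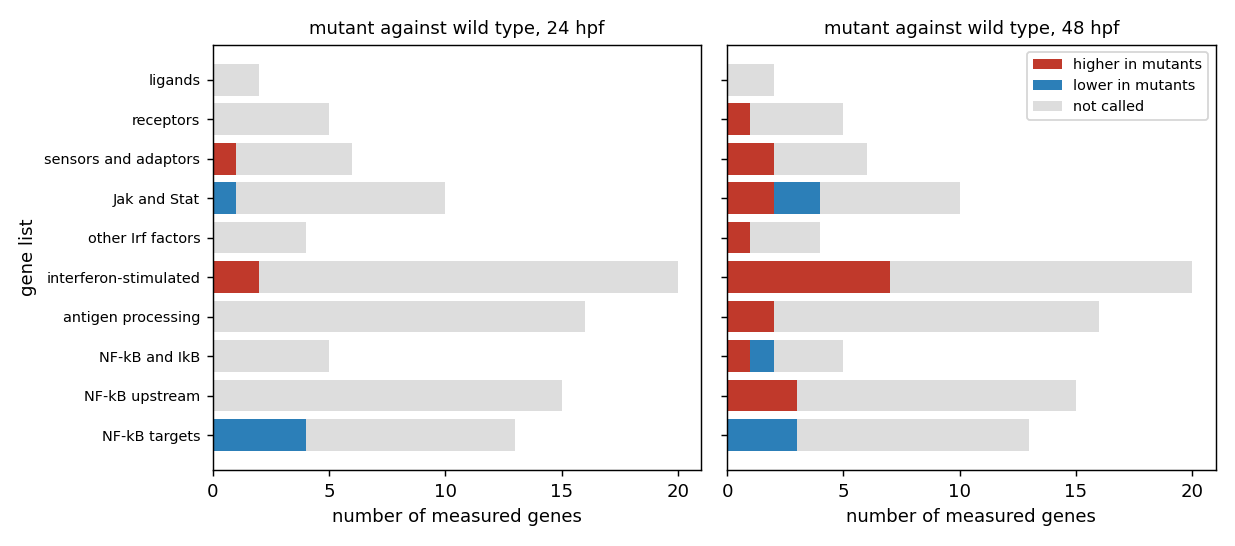
Number of measured genes in each pathway list (rows) that were higher, lower or not called in mutants against wild type embryos at 24 and 48 hpf. At 48 hpf the interferon-stimulated genes had 7 higher and 0 lower of 20, and the NF-kB target list had 0 higher and 3 lower of 13.

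Few ligands and receptors could be read. Of 16 ligand genes only ifnphi1, a type I interferon of zebrafish, and tnfsf10, a death ligand, were measured, and neither passed or had an unadjusted limma p under 0.05. The log2 difference at 48 hpf was -0.09 for ifnphi1 (limma adjusted p = 0.613), which lay under the median of the foreign sequences on all arrays, and -0.16 for tnfsf10 (0.55). Of 5 measured receptor genes, tnfrsf1a, the main receptor for tumour necrosis factor, rose by 0.57 ± 0.14 on the log2 scale (limma adjusted p = 0.0116). That is 20% of the list, beside 9.66% of all genes with a symbol. The mutant and wild type pools overlapped for tnfrsf1a, which passed the median of the foreign sequences on 7 of the 16 arrays. The interferon gamma receptor gene ifngr2 differed by 0.17 (limma adjusted p = 0.635) and the type II cytokine receptor gene crfb4 by 0.26 (0.107).

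Of 6 measured sensor and adaptor genes, 2 rose at 48 hpf (33.3%, beside 9.66% of all genes with a symbol). The kinase gene tbk1, which activates IRF3 downstream of nucleic acid sensors, rose by 0.59 ± 0.13 (limma adjusted p = 0.00474). Its other probe set differed by 0.07 (0.649), so its probe sets disagree. No wild type pool passed the median of the foreign sequences for tbk1 at either time. The kinase gene irak4, which acts below Toll-like receptors, rose by 0.49 ± 0.13 (limma adjusted p = 0.0124). The viral RNA adaptor gene mavs, under the median of the foreign sequences on all arrays, differed by 0.06 (limma adjusted p = 0.752).

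In the Janus kinase and STAT list 2 of 10 genes rose and 2 fell (40% called, beside 17.8% of all genes with a symbol). The kinase gene jak1, shared by interferon receptors, read 6.62, 7.14, 7.25 and 7.95 in mutant pools at 48 hpf against 6.41, 6.53, 6.24 and 6.40 in wild type pools, and it rose by 0.85 ± 0.19 (limma adjusted p = 0.00537). For stat3, which carries signals of the interleukin 6 family, the pools read 6.78, 6.92, 7.47 and 8.28 in mutants against 6.53, 6.59, 6.76 and 6.76 in wild type embryos, a rise of 0.70 ± 0.22 (limma adjusted p = 0.0402). Both genes were highest in mutant pool 4, and both had all mutant pools above all wild type pools. Without mutant pool 4 stat3 differed by 0.40 (limma adjusted p = 0.0766), and 13 alternatives in all ended its call. The kinase gene jak2b fell by 0.42 (limma adjusted p = 0.0415) and stat5a fell by 0.36 (0.0294), calls that 11 and 6 alternatives ended.

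The feedback inhibitor genes socs3a and socs3b, which STAT3 switches on in mammals, did not pass but spread widely between mutant pools. They and irg1l and mmp9 below were named after their values were seen. The gene socs3a read 5.36, 7.38, 8.32 and 10.13 in mutant pools 1 to 4 at 48 hpf, against 6.08, 6.21, 6.88 and 7.11 in wild type pools. For socs3b the values were 4.76, 5.53, 6.89 and 8.34 in mutants and 5.47, 5.31, 5.70 and 5.40 in wild type embryos. In both genes mutant pool 4 was the highest of the 4 and pool 1 the lowest, below all wild type pools. The log2 differences were 1.23 ± 0.69 and 0.91 ± 0.50 (limma adjusted p = 0.266 and 0.247).

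Among the other interferon regulatory factors, 1 of 4 measured genes rose (25%, beside 9.66% of all genes with a symbol). This was irf9, a transcription factor gene of the type I interferon response, which read 4.47, 4.46, 4.57 and 5.297 in mutant pools at 48 hpf against 3.74, 4.00, 3.90 and 4.06 in wild type pools. All mutant pools lay above all wild type pools, with pool 4 apart from the rest. The rise was 0.78 ± 0.17 (limma adjusted p = 0.00401), and only 1 of the 16 arrays exceeded the median of the foreign sequences. The gene irf7, which amplifies type I interferon, differed by 0.11 (limma adjusted p = 0.554).

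The interferon-stimulated genes, the longest list, held the most calls at 48 hpf. The share called was 35%, against 40% in the Janus kinase and STAT list and in the NF-kB core. Of the 20 genes 7 rose (35%, beside 8.76% of all probe sets and 9.66% of all genes). None fell (1 at an unadjusted limma p under 0.05) and 13 did not pass, while 33.3% of the sensors and adaptors rose. Among the interferon-stimulated genes that rose was uba7, which encodes the activating enzyme that loads Isg15 for conjugation. It read 5.26, 5.37, 5.38 and 5.31 in mutant pools at 48 hpf against 4.39, 4.51, 4.70 and 4.58 in wild type pools, a rise of 0.78 ± 0.10 (limma adjusted p = 6.23e-05). In contrast to isg15, uba7 was raised about equally in all 4 mutant pools. At 48 hpf these 4 and 1 wild type pool passed the median of the foreign sequences. The gene gbp1, a guanylate-binding GTPase, read 7.18, 7.20, 7.55 and 7.20 in mutants against 6.02, 5.92, 6.30 and 6.03 in wild type embryos, a rise of 1.21 ± 0.16 (limma adjusted p = 6.74e-05). It too was high in every mutant pool. The exonuclease gene isg20 read 6.98, 7.15, 7.40 and 7.47 in mutants against 6.49, 6.46, 6.39 and 6.70 in wild type embryos, a rise of 0.74 ± 0.15 (limma adjusted p = 0.00229).

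The remaining calls in that list were smaller. The STAT-interacting gene nmi rose by 0.58 ± 0.15 (limma adjusted p = 0.0124), a call that 1 alternative ended. The genes trim25, ftr82 and ifi27.1 are named to complete the count. The ubiquitin ligase gene trim25, whose human counterpart is also an ISG15 ligase, rose by 0.40 ± 0.10 (limma adjusted p = 0.0129) while under the median of the foreign sequences on all arrays. The finTRIM gene ftr82 rose by 0.38 (limma adjusted p = 0.0436) and ifi27.1 by 0.38 (0.0369), calls that 15 and 11 alternatives ended. The genes mxa here and psmb8a below were named outside the rule, after their values were seen. The antiviral GTPase gene mxa, a standard marker of type I interferon in fish, differed by 0.06 ± 0.14 (limma adjusted p = 0.842). Its signal, with those of 7 others of the 20, did not pass the median of the foreign sequences on any array.

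Of 16 genes of antigen processing, 2 rose at 48 hpf, both class I components. That is 12.5% higher, near the 9.66% of all genes with a symbol, and 12.5% called in either direction, beside 17.8%. The heavy chain gene mhc1zba rose by 0.74 ± 0.22 (limma adjusted p = 0.028), a call that 8 alternatives ended. It passed the median of the foreign sequences on 8 of the 16 arrays. The light chain gene b2m read 4.21, 4.16, 4.48 and 5.35 in mutants against 3.90, 4.01, 3.63 and 4.17 in wild type embryos, a rise of 0.62 ± 0.20 (limma adjusted p = 0.0457). Mutant pool 4 stood above the others for b2m and was the only 1 of the 16 arrays above the median of the foreign sequences. Without that pool the log2 difference was 0.36 (limma adjusted p = 0.105). In all, 16 alternatives ended that call. The immunoproteasome gene psmb8a differed by -0.08 (limma adjusted p = 0.764).

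**Figure D3:**
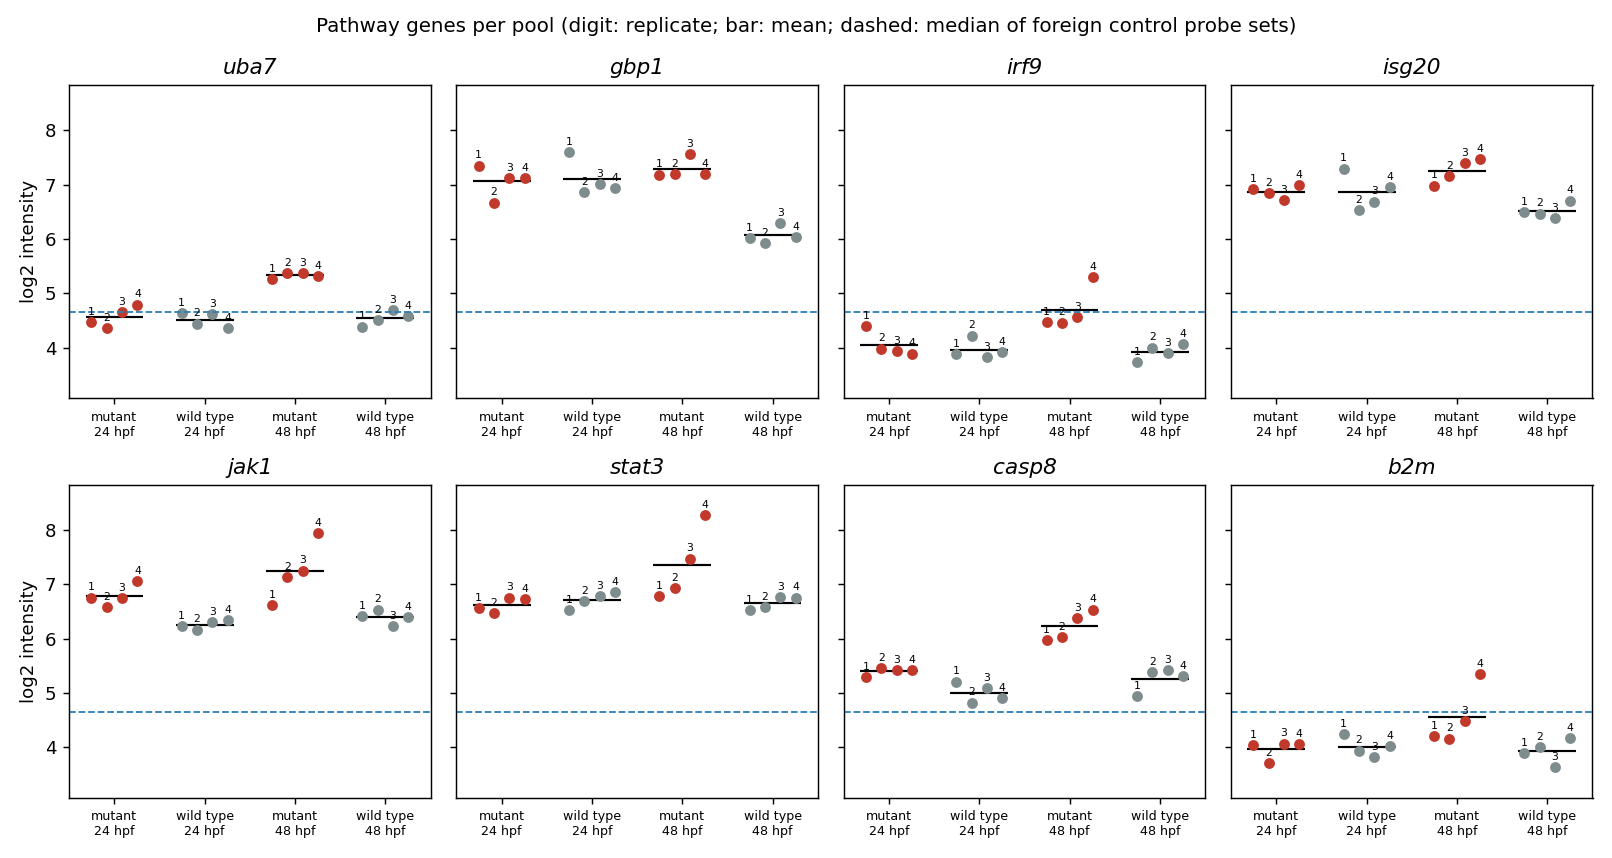
Log2 intensity (vertical axis) of 8 pathway genes called at 48 hpf in each pool, mutants left of wild type embryos at each time, with group means as bars and the median of the foreign sequences as a dashed line. The genes uba7 and gbp1 are higher in all 4 mutant pools than in any wild type pool at 48 hpf, with gbp1 highest in pool 3 (7.55), while stat3, b2m and irf9 are highest in mutant pool 4 (8.28, 5.35 and 5.297).

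Around nfkb2, 1 of 5 genes of the NF-kB core rose and 1 fell at 48 hpf, both inhibitors (40% called, beside 17.8% of all genes with a symbol). The inhibitor gene nfkbib rose by 0.44 ± 0.13 (limma adjusted p = 0.0308), a call that 6 alternatives ended. The inhibitor gene nfkbiab, a classical NF-kB target, fell by 0.62 ± 0.14 (limma adjusted p = 0.00463). Its paralog nfkbiaa differed by -0.19 (limma adjusted p = 0.601). The gene relb, whose product pairs with p52, differed by 0.18 ± 0.10 (limma adjusted p = 0.275).

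Upstream of NF-kB 3 of 15 genes rose (20%, beside 9.66% of all genes with a symbol) and none fell. At an unadjusted limma p under 0.05, 4 were higher and 0 lower. The caspase gene casp8, which acts at death receptors, read 5.97, 6.03, 6.38 and 6.54 in mutants at 48 hpf against 4.94, 5.38, 5.42 and 5.31 in wild type embryos, a rise of 0.97 ± 0.14 (limma adjusted p = 0.000104). All mutant pools were above all wild type pools. The gene ikbkg, the regulatory subunit of the IkB kinase, rose by 0.35 ± 0.10 (limma adjusted p = 0.0181), and the death receptor adaptor gene tradd rose by 0.34 ± 0.10 (0.0314). The calls of ikbkg and tradd were ended by 4 and 8 alternatives. The gene map3k14a, the kinase that triggers processing of p100, differed by 0.27 ± 0.10 (limma adjusted p = 0.0753).

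None of the 13 measured NF-kB targets rose at 48 hpf in limma (1 did at an unadjusted p under 0.05), and 3 fell (23.1%, beside 8.18% of all genes with a symbol). The collagenase gene mmp13a fell by 1.29 ± 0.25 (limma adjusted p = 0.00216), the chemokine gene cxcl12a fell by 1.14 ± 0.15 (3.91e-05) and the cyclooxygenase gene ptgs2a fell by 0.85 ± 0.17 (0.00259). For mmp13a the groups overlapped, since mutant pool 4 (6.747) lay within the range of the wild type pools (6.637 to 6.994). In the embryo cxcl12a is also a guidance cue for migrating cells, and mmp13a is also a leukocyte marker. The inflammation gene irg1l read 5.51, 5.34, 5.3 and 8.02 in mutants against 4.92, 5.64, 4.88 and 5.56 in wild type embryos, a log2 difference of 0.79 ± 0.43 (limma adjusted p = 0.249). The protease gene mmp9 read 5.14, 5.06, 6.59 and 8.63 in mutants against 5.94, 6.10, 6.29 and 6.03 in wild type embryos, a log2 difference of 0.27 ± 0.51 (limma adjusted p = 0.789). In both genes mutant pool 4 was far above every other pool at 48 hpf.

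At 24 hpf 3 of the 96 pathway genes rose and 5 fell, 8.33% in all, close to the 7.35% of all probe sets and 8.69% of all genes with a symbol. Higher calls made up 3.26% of all probe sets and 3.61% of genes, and lower calls 4.09% and 5.08%. Those that rose were tbk1 by 0.51 (limma adjusted p = 0.025, with 0.03 and 0.918 for its other probe set), ftr82 by 0.48 (0.0236) and the scramblase gene plscr3b by 0.34 (0.0427). The targets ptgs2a, mmp13a, gadd45ba and cxcl12a fell by 1.29, 1.05, 0.78 and 0.58 (limma adjusted p = 0.000241, 0.0185, 0.0232 and 0.0218), and the phosphatase gene ptpn6, which restrains cytokine receptors, fell by 0.44 (0.032). At 24 hpf the 3' minus 5' signal of acta1 was 3.567 to 3.781 in mutants against 3.029 to 3.15 in wild type embryos. The summed macrophage and neutrophil markers without apoc1 and ctss2.1 read 701.1 to 781.6 in mutants against 838.7 to 923.4 in wild type embryos. That sum holds the bright cebpb, which averaged 7.695 in mutants and 8.137 in wild type embryos (log2 intensity, limma adjusted p = 0.164). It is not read as a fall across the list. The part of RNA integrity and of cell content in the changes of pathway genes at 24 hpf was not tested. Among these 8 calls only that of ptgs2a held under each of the 23 alternatives. The signal of ptpn6 did not pass the median of the foreign sequences in any pool at 24 hpf. The comparisons at 24 and 48 hpf share no arrays, although they share the estimate of spread, and ptgs2a, mmp13a and cxcl12a fell and tbk1 and ftr82 rose in both. The pathway count was 1 without wild type pool 3 at 24 hpf, and between 3 and 5 without wild type pools 2 or 4 or mutant pools 1, 3 or 4.

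**Figure D4:**
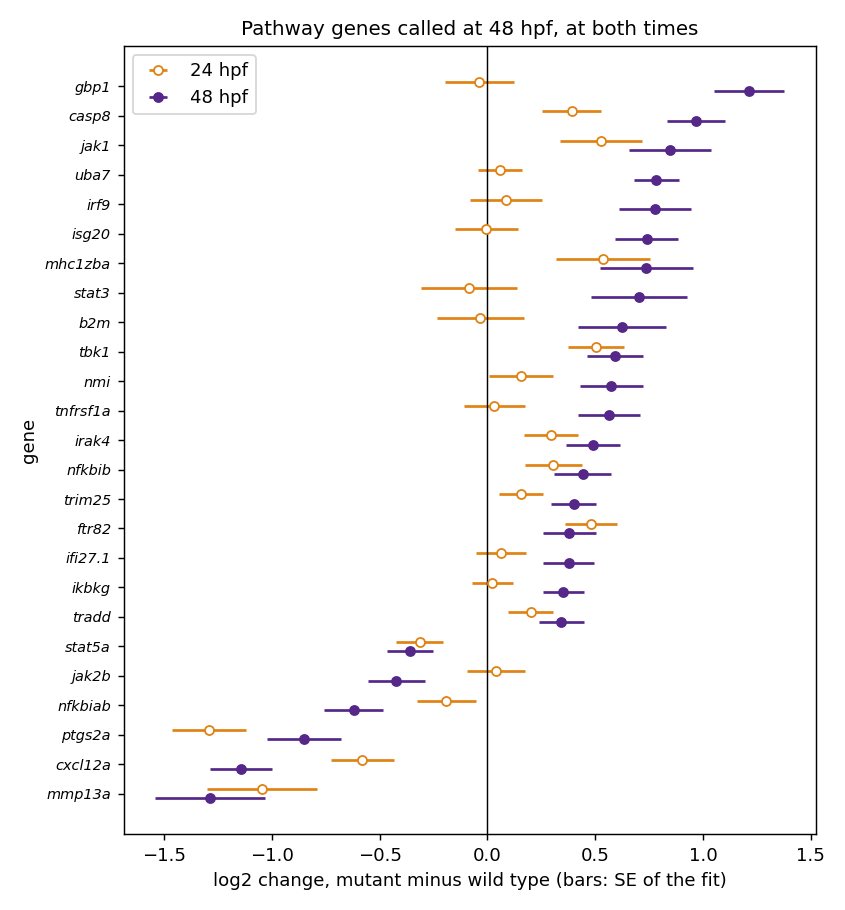
Log2 difference of mutants minus wild type embryos at 48 and 24 hpf for the pathway genes called at 48 hpf, with the SE of the fit (n = 4 pools per group). Genes not called at 48 hpf are not drawn. The difference at 48 hpf runs from 1.21 for gbp1 down to -1.29 for mmp13a among called genes, and ptgs2a, mmp13a and cxcl12a lie below 0 at both times.

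The genotype effect itself differed between times for 2 of the 96 genes, uba7 and gbp1, which is 2.08% beside 1.45% of all probe sets and 1.81% of all genes. Both effects were larger at 48 hpf, a direction that 0.606% of all probe sets and 0.773% of genes shared. The effect on uba7 was 0.73 ± 0.15 larger at 48 than at 24 hpf (limma interaction, adjusted p = 0.018). At 24 hpf uba7 differed by 0.06 (limma adjusted p = 0.844), and linear intensities were 22.2, 20.6, 25.2 and 27.7 in mutants against 24.9, 21.7, 24.5 and 20.5 in wild type embryos. At 48 hpf the linear intensities were 38.3, 41.3, 41.5 and 39.7 in mutants against 20.9, 22.9, 25.9 and 23.9 in wild type embryos. Of the 16 arrays, 7 had uba7 above the median of the foreign sequences. The effect on gbp1 was 1.25 ± 0.23 larger at 48 hpf (limma interaction, adjusted p = 0.00968). In wild type embryos gbp1 fell by 1.03 at 48 against 24 hpf (limma adjusted p = 0.000143), and linear intensities at 48 hpf were 145.2, 146.5, 188 and 146.9 in mutants against 65.0, 60.8, 78.6 and 65.4 in wild type embryos. At 24 hpf they were 162.9, 101.7, 138.4 and 139.1 in mutants against 192.9, 116.7, 128.5 and 122.1 in wild type embryos, so that the later mutant values lay within the range seen at 24 hpf. No alternative ended either interaction call. As description, the interaction was 1.58 ± 0.74 for isg15, 1.17 ± 0.32 for irf1b, 0.43 ± 0.18 for nfkb2 and 0.40 ± 0.12 for irf1a.

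Over normal development 13 of the 96 pathway genes rose and 6 fell at 48 against 24 hpf in wild type embryos, 19.8% against 30.3% of all probe sets and 36.1% of all genes. Higher calls made up 12.6% of all probe sets and 14.4% of genes, and lower calls 17.7% and 21.7%. That split depended on the scaling: 1957 probe sets were higher and 2739 lower here, against 2331 and 1973 after cyclic loess between arrays, and the pathway split of 13 and 6 became 16 and 4. The mitochondrial superoxide dismutase gene sod2 rose by 2.51 (limma adjusted p = 3.35e-08) and the apoptosis inhibitor gene birc2 by 0.66 (0.000366). The finTRIM gene ftr83 fell by 1.07 (limma adjusted p = 9.51e-07) and the proteasome activator gene psme3 fell by 0.86 (0.00101). Of the genes that fell in mutants, cxcl12a rose by 0.84 (limma adjusted p = 0.00033) and mmp13a by 0.95 (0.00889) in wild type development. So did jak2b, lower in mutants at 48 hpf, by 0.45 (limma adjusted p = 0.0169) and ptpn6, lower at 24 hpf, by 0.47 (0.00604). The others that fell in mutants, stat5a, nfkbiab, ptgs2a and gadd45ba, did not pass in wild type development.

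Genes whose pattern was most like each of the 4 were sought among 4801 genes with a mean log2 intensity of at least 6, by Pearson correlation over the 16 arrays. For isg15 these were stat3 (0.933), clu (0.904) and c6.2 (0.892), which encode a STAT factor, the chaperone clusterin and a complement component. The intensities of clu at 48 hpf were 122.4, 125.5, 254.1 and 578.9 in mutants against 78.2, 84.9, 126.6 and 91.9 in wild type embryos. For c6.2 they were 85.4, 138.5, 260.1 and 451.4 in mutants against 76.8, 74.8, 63.1 and 84.5 in wild type embryos. Both genes were highest in mutant pools 3 and 4. They were picked for their likeness to isg15, so this order of pools follows from the choice. The isg15 correlations over the 16 arrays rest largely on those pools. For irf1b the nearest genes were hmgcs1 (0.929), an enzyme of sterol synthesis, stat3 (0.926) and si:ch73-335l21.4 (0.917). For irf1a they were prss59 (0.892), nploc4 (0.882) and atp6v1c1b (0.854), and for nfkb2 they were mvp (0.827), the major vault protein gene, copg2 (0.821) and atp6v1ba (0.82). When each array was set against its group mean, so that only differences between pools of a group counted, the nearest genes were sox4a (0.947), kiaa0513 (0.919) and clu (0.919) for isg15. They were dsg2.1 (0.918), atp2a1l (0.91) and sav1 (0.904) for irf1b, fgg (0.86), nploc4 (0.801) and fbxo44.1 (0.798) for irf1a, and kifap3a (0.794), adob (0.769) and ctsd (0.766) for nfkb2. This measure leaves out the difference between genotypes. For isg15 it rests largely on the mutant pools at 48 hpf, whose SD was 1.74 against 0.08 to 0.19 in the other groups. At 48 hpf the log2 difference was -1.003 for sox4a, 0.221 for kiaa0513 and 1.218 for clu (limma adjusted p = 0.0143, 0.427 and 0.02). It was 0.009 for dsg2.1, -1.866 for atp2a1l and -0.175 for sav1 (limma adjusted p = 0.981, 0.000732 and 0.279). Only clu was among the nearest 3 of isg15 by both measures, and only nploc4 among those of irf1a.

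**Figure D5:**
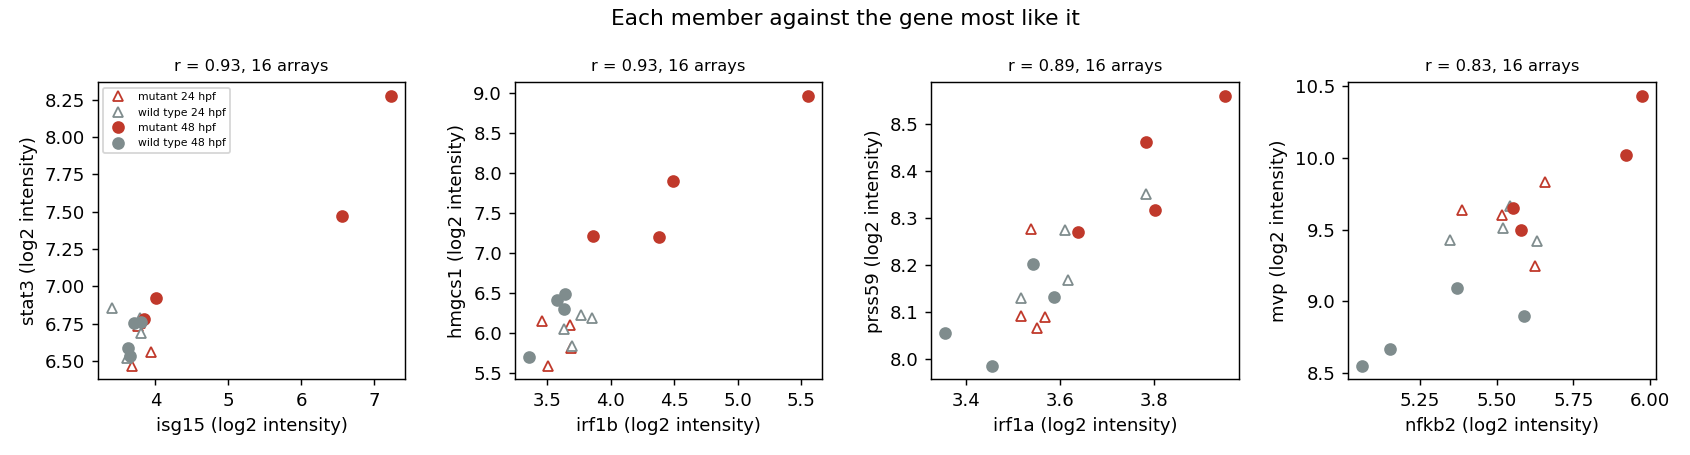
Log2 intensity of isg15, irf1b, irf1a and nfkb2 (horizontal axes) against that of the gene most like each (vertical axes), among 4801 genes searched. Points are single arrays, and r is the Pearson correlation over the 16 arrays. The highest correlations are those of stat3 with isg15 (0.933) and hmgcs1 with irf1b (0.929).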

How the data were processed

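The authors deposited 1 normalized intensity for each probe set and array, in linear units, and GCOS, RMA and affy are named in the submitters' processing notes. No source used here gives versions, background correction or filters. Log2 values were foreseen in the plan, but the table proved linear, so log2 of the deposited intensity was taken without a pseudocount. The table held 15617 probe sets, 115 of them controls, with 0 missing values. Arrays have no read depth, and the number of arrays limits the precision.

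The other 15502 probe sets were tested without a filter on dim signal. Symbols came from the platform annotation (1 symbol for 10795 probe sets, several for 135, none for 4572), and 10711 were found in RefSeq assembly GRCz12tu by gene identifier, with 1 symbol changed. Where a gene had several probe sets, the brightest on average was used, which gave 8793 genes.

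A group-means model was fitted to all 16 arrays with limma 3.58.1 in R 4.3.3 (12 residual degrees of freedom, 4.97 prior). Tests were two-sided. A call is a Benjamini-Hochberg adjusted p under 0.05, with adjustment over all 15502. The scripts were tested on simulated data. Alternatives changed the arrays in the fit, the scaling, a dim filter (log2 of at least 6 on at least 4 arrays), the replicate number as a block, array weights, the probe set per gene, and left out each array in turn. Values after ± are SE for differences and SD for group means.

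The 4 genes and the gene lists were chosen with earlier results of these data known. Named by rule were the 4 genes, rad21a, up to 4 genes of each list by smallest adjusted p at 48 hpf, genes called at 24 hpf (up to 4 a list), up to 2 genes a list for wild type development, and the 3 genes most like each of the 4. Genes named outside it are marked as such.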

Additional observations from a re-analysis of the deposited data

Results flagged for a closer look

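Among 312 combinations of 78 named genes and 4 groups, 23 had 1 array apart from the other 3 by Dixon's test, and chance flags about 1 in 20. In mutants at 48 hpf, pool 4 stood apart in irf9 (5.297), tradd (6.927), mmp13a (6.747) and irg1l (8.018), pool 3 in gbp1 (7.554) and pool 1 in ifi27.1 (4.363), all in log2 intensity. In wild type embryos at 48 hpf, pool 3 stood apart in ifnphi1 (4.006), ifngr2 (5.141) and tnfrsfa (7.494), and pool 2 in tbk1 (4.283). In mutants at 24 hpf, pool 1 stood apart in irak4 (6.888), cxcl12a (6.927), trim25 (3.431), prss59 (8.276) and kifap3a (6.332), pool 2 in b2m (3.717) and pool 4 in irf2a (5.441) and nfkbiaa (7.78). In wild type embryos at 24 hpf, pool 4 stood apart in tnfrsfa (5.994), plscr3b (9.42) and mhc1zba (4.244), and pool 1 in fgg (9.384) and fbxo44.1 (6.514). The isg15 probe set was not among them, and 2 of its 4 mutant pools at 48 hpf were high.

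The genotype effect differed between 48 and 24 hpf, by the limma interaction, for uba7 by 0.726 (adjusted p = 0.018), gbp1 by 1.251 (0.00968), atp6v1c1b by 0.685 (0.0372), hmgcs1 by 1.744 (0.045), atp2a1l by -1.874 (0.0495) and mvp by 1.026 (0.0497), on the log2 scale. No alternative ended the calls of uba7 and gbp1. Those of atp6v1c1b, hmgcs1, atp2a1l and mvp were ended by 13, 14, 13 and 17 alternatives.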

How the results depend on the processing

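The log2 differences of the 4 genes kept their direction, and at 24 hpf and in wild type development their side of the threshold, under 342 combinations of result and alternative and changed sign in 6, all of them close to 0. For nfkb2 at 24 hpf the value was -0.022 with array weights, and it ran from -0.019 to 0.088 with single arrays left out (-0.002 without mutant pool 1). For isg15 in wild type development it was -0.024 with array weights, -0.036 to 0.098 with single arrays left out, and -0.003 without the 3 arrays least like their groups, an alternative chosen after seeing the data. Without those 3 arrays the differences at 48 hpf were 1.15 for isg15, 0.63 for irf1b, 0.31 for nfkb2 and 0.27 for irf1a. The count of pathway genes called at 48 hpf, 25, became 16 with only the groups compared, 14 with the dim filter, which left 38 of the 96 genes and none of the 4, and 16 to 27 with single arrays left out. The count at 24 hpf, 8, became 16 with array weights and 1 to 10 with single arrays left out. Over all probe sets, 1139 were called at 24 hpf, 2908 with array weights, 1889 without the 3 arrays and 646 to 1376 with single arrays left out. The interaction gave 225, 530 with array weights and 125 to 231 with single arrays left out. The cause was not tested, beyond fewer genes or arrays. Leaving out single arrays gave 1835 to 2762 at 48 hpf and 4112 to 4958 for wild type development, with 15 to 24 pathway genes.

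Replicate numbers are shared between groups by label only. Deviations of same-numbered mutant and wild type pools had correlations of 0.426, -0.307, 0.305 and 0.392 at 24 hpf and -0.155, 0.031, -0.008 and 0.046 at 48 hpf, so not every pair was over 0.1 and the numbers were not taken to pair the pools, although 3 of 4 pairs at 24 hpf were positive. With the replicate number as a block, 1360, 2691, 5005 and 286 probe sets were called at 24 hpf, at 48 hpf, in wild type development and for the interaction, and 9, 24 and 20 pathway genes in the first 3 comparisons.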
